A study of Mus musculus with 8 samples.

Results

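Pre-B cells made to express the microRNA miR-125b were compared before and after loss of interleukin 7 (IL-7), the cytokine on which these cells depend. The comparison rests on 4 of the 8 one-colour microarrays of the series, chosen by their titles: 2 arrays of miR-125b cells kept in excess IL-7, and 2 arrays of miR-125b cells kept without it for 24 h. All cells belonged to the mouse pre-B line 1676, whose genotype is SLP-65-/- LAT-/-, so that cells of every group lack a pair of adaptor proteins that act downstream of the pre-B cell receptor. They had been infected with a retroviral vector encoding hsa-miR-125b, selected with puromycin at 1 µg/ml, and grown in Iscove's medium with 7.5% fetal calf serum and IL-7 from the supernatant of IL-7-expressing J558L cells. The other 4 arrays hold the same line with a control vector under the same pair of conditions, and enter here through the shared estimate of the spread and through a test of whether the responses differed. The design text states that each repetition used cell clones generated apart, which makes the 2 arrays of a group separate clones of a single parental line. All arrays with IL-7 lay on a single slide and all arrays without IL-7 on another, which was scanned apart and read with a different release of the scanner software. Withdrawal and slide therefore cannot be told apart in any of the changes below.

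IL-7 signals through a receptor made of the IL-7 receptor alpha chain and the common gamma chain, which activate the kinases JAK1 and JAK3, the transcription factor STAT5, and the PI3K and AKT pathway. AKT keeps FOXO transcription factors out of the nucleus, and in pre-B cells FOXO1 switches on the recombinase genes Rag1 and Rag2, so loss of IL-7 is used in culture to push cycling pre-B cells towards light chain rearrangement. miR-125b is a blood-cell microRNA whose overexpression blocks differentiation and can cause leukaemia in mice. Its mature form is shown because the vector that all these cells carry encodes it, with bases 2 to 8, the seed that pairs with target messages, in capitals. The sequence is the mouse one from RefSeq (GRCm38.p6), where it is encoded on the plus strand at chr9:41581940-41581961 and again at chr16:77646279-77646300.
miR-125b-5p: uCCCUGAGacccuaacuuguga

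On these arrays a level is the log2 of a probe's background-subtracted signal minus the log2 of that array's 75th percentile, so 0 marks the 75th percentile and levels of different probes cannot be set against each other. A gene is represented by its brightest probe, and a change is the mean level without IL-7 minus the mean level with IL-7. Of 20676 genes tested, 18153 were well above background on all 4 miR-125b arrays, 989 were so on neither array with IL-7 and both without, and 201 the other way round. The arrays without IL-7 were brighter, with 75th percentiles of 676 and 722 against 379 and 356 intensity units, and had 30522 and 29930 of 55681 probes well above background against 27853 and 27612. The spike-in control spots ran the other way and were lower without IL-7 by 1.39 on the log2 scale. Across all genes the 2 arrays of a group correlated at r = 0.995 with IL-7 and 0.996 without, and their levels differed with an SD of 0.40 and 0.32. Of 14 pre-B cell markers with a probe, 13 were well above background on all 4 arrays, among them Cd79a, Vpreb1 and Rag1. Markers of other lineages were split. Of 17 myeloid markers 5 were well above background on all 4 arrays (among them Itgam and Cd68) and 8 on none (among them Mpo, S100a8 and Ly6g). Of 20 T and NK cell markers 9 were so on all 4 (among them Cd3e, Lck and Zap70) and 10 on none (among them Cd3d, Cd3g and Thy1). Of 12 erythroid and megakaryocyte markers with a probe 6 were so on all 4 (among them Epor and Klf1) and 4 on none (among them Gata1 and Alas2). The part of other cell types in the changes was not tested. In bulk RNA such as this, fewer cells of a type and less RNA per cell cannot be told apart.

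After 24 h without IL-7, 10841 of 20676 genes (52.4%) passed the limma test at an adjusted p under 0.05, of which 4200 (20.3%) were higher and 6641 (32.1%) lower, and 2817 (13.6%) changed at least 2-fold. The 2 groups did not overlap in any of the 10841 genes called, so a lack of overlap named below adds nothing to a call. The called changes depended on brightness. In the dimmest 10% of genes the median log2 change was 0.67, and in the brightest 10% it was -0.52, with 73.2% of the latter called lower. Quantile normalization, which gives every array the same distribution of values, moved the median of the brightest 10% to -0.01 and called 9716 genes (47%), 4651 higher (22.5%) and 5065 lower (24.5%). The median of the dimmest 10% was 0.37 under quantile normalization and turned to -0.42 after normexp background correction. Higher calls made up 38.7% of all calls under 75th percentile scaling, 47.9% under quantile normalization, 48.1% in the authors' deposited values, 24.9% after normexp background correction, 21.7% after scaling to the median and 54.3% with the percentile taken over bright probes. The median change of all genes moved with them, from -0.11 in the scaling used here to -0.03 under quantile normalization, -0.24 under normexp and -0.36 under median scaling. A total of 8264 genes were called in the same direction under both 75th percentile scaling and quantile normalization, and 82 in opposite directions. Counts over the gene lists in miR-125b cells are therefore given under both, and are to be read against the shares of all genes called higher and lower (20.3% and 32.1%, or 22.5% and 24.5% under quantile normalization). Under normexp the changes of 32 of 128 named genes that were called moved by over 1.5 times, all towards smaller changes, with Ccnd2 turning sign. Without the first array lacking IL-7 the number of genes called was 7170.

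**Figure D1:**
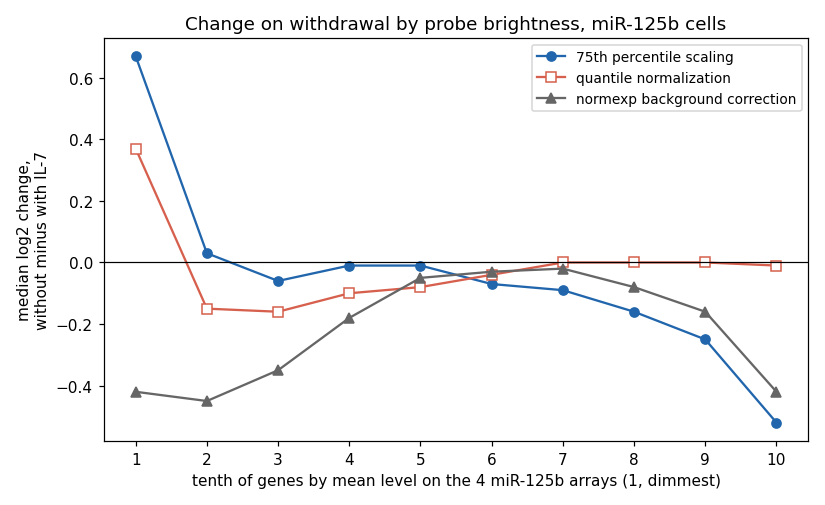
Median log2 change on IL-7 withdrawal in miR-125b cells (vertical axis) for genes grouped into 10 equal bins by mean level on the 4 arrays (horizontal axis, 1 the dimmest), under 3 ways of processing the signals. Under 75th percentile scaling the medians run from 0.67 in the dimmest bin to -0.52 in the brightest, and under quantile normalization the brightest bin lies at -0.01. The dimmest bin lies at 0.37 under quantile normalization and at -0.42 under normexp background correction.

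Of the receptor chains Il2rg fell and Il7r was not called, and the STAT5 targets did not move one way. Of 15 receptor and JAK-STAT components measured, 2 rose and 3 fell, and 7 rose and 1 fell under quantile normalization, with a median of 0.03 that was 0.21 under quantile normalization and -0.22 under median scaling. Il7r, the alpha chain of the receptor, read 4.98 and 4.76 with IL-7 and 4.84 and 4.76 without, a change of -0.07 (SE 0.09, adjusted p = 0.559). The groups overlapped, and the sign of this change turned under quantile normalization (0.22). Il2rg, the common gamma chain, fell from 2.05 and 2.11 to 1.53 and 1.63 (-0.50, SE 0.07, adjusted p = 0.00378). Ptpn6, a phosphatase that restrains JAK signalling, fell by 0.54, a call lost under quantile normalization (-0.27, adjusted p = 0.0645).

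Of 19 STAT5 targets measured, 7 rose and 5 fell under 75th percentile scaling and 6 rose and 5 fell under quantile normalization, with a median of 0.09 that was -0.18 under normexp and -0.15 under median scaling. Cish, a feedback inhibitor of cytokine receptors that STAT5 switches on directly, read -2.55 and -0.63 with IL-7 and -1.91 and -2.20 without. The arrays with IL-7 lay on either side of those without, so the change of -0.47 (SE 0.64) did not pass (adjusted p = 0.563). It became -1.43 (adjusted p = 0.0409) without the first array with IL-7, and 0.49 without the second. Socs2, another feedback inhibitor, was 0.28 higher (adjusted p = 0.118). It passed under quantile normalization (0.45, adjusted p = 0.0286), normexp (0.36, adjusted p = 0.0182), the percentile over bright probes (0.44, adjusted p = 0.0261), the deposited values (adjusted p = 0.0295), the mean of its probes (0.47, adjusted p = 0.0151) and without the second array with IL-7 (0.44, adjusted p = 0.0424), but was at 0.03 under median scaling. Pim1, a survival kinase, was 0.22 higher (adjusted p = 0.108), passed under normexp (0.40, adjusted p = 0.0052) and the percentile over bright probes (0.38, adjusted p = 0.0378), and was at -0.02 under median scaling. Il2ra, the alpha chain of the IL-2 receptor (CD25) and a marker of small pre-B cells, went from 1.22 and 0.27 to 2.56 and 2.49, a 3.43-fold rise (1.78, SE 0.29, adjusted p = 0.00493), with both arrays without IL-7 above both with it. Osm, a cytokine gene that STAT5 activates, fell by 0.58 (adjusted p = 0.0164, up to 0.0797 when an array was left out: the second with IL-7 or the first without). Dusp5, a phosphatase of ERK kinases, fell by 1.28 (adjusted p = 0.012, and 0.0622 or 0.0641 without the same arrays). Ccnd2, which encodes cyclin D2, stood clear of background on 1 array of the 4, so its fitted change of 1.87 has no firm base level, and under normexp it was -0.35.

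Bcl6, a transcriptional repressor that STAT5 holds down, read 3.93 and 3.65 with IL-7 and 4.11 and 4.29 without, a rise of 0.41 (SE 0.12, adjusted p = 0.0317). The groups did not overlap, but the call was lost when any of the 4 arrays without IL-7 or the second miR-125b array with IL-7 was left out (adjusted p up to 0.145), and also when only the 4 miR-125b arrays were fitted, when dim probes were kept and under median scaling (0.17, adjusted p = 0.395), while under quantile normalization the rise was 0.65. A promoter window of Bcl6 (250 bases before to 50 after a start site, RefSeq GRCm38.p6, chr16:23981234-23981533, minus strand) is shown because it held 3 matches to the STAT5 letters TTCNNNGAA, in capitals and not overlapping, where N is any base. The letters were searched on both strands, and 8.3% of all 32851 promoter windows held a match, against 7.24% for tested genes, 7.23% for genes called higher and 6.79% for genes called lower.
Bcl6: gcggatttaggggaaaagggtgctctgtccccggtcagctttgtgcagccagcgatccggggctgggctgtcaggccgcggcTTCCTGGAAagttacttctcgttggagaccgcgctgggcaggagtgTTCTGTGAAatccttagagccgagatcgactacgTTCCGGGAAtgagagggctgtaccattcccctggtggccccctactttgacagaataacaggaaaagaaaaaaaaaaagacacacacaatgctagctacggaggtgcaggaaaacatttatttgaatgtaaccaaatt

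Most genes of the FOXO list rose. Of 27 FOXO factors and targets measured, 20 rose and none fell under 75th percentile scaling, and 22 rose and none fell under quantile normalization, where 20.3% and 22.5% of all genes rose. Under median scaling 13 rose and none fell, and under normexp 21 rose and 2 fell. The list's median was 0.44 and 0.70, against -0.11 and -0.03 over all genes. Foxo1 itself, the main FOXO factor of B-lineage cells, read 4.90 and 4.85 with IL-7 and 5.20 and 5.32 without (0.38, SE 0.09, adjusted p = 0.0155, and 0.0683 or 0.0809 without the second array with or without IL-7). Its rise was 0.70 under quantile normalization and missed the threshold under median scaling (0.14, adjusted p = 0.428) and with dim probes kept (adjusted p = 0.056). Both members of the recombinase rose. Rag1, whose protein cuts at the signals flanking immunoglobulin segments (probe at chr2:101478813-101478872, minus strand, mm9), read 2.48 and 1.63 with IL-7 and 4.18 and 4.32 without, a 4.58-fold rise (2.20, SE 0.28, adjusted p = 0.00282). Its partner Rag2 (probe at chr2:101470723-101470782, plus strand, mm9) read 2.65 and 1.84 with IL-7 and 3.50 and 3.65 without, a 2.51-fold rise (1.33, SE 0.26, adjusted p = 0.00873). For both genes the arrays without IL-7 lay close together and above both arrays with it, which differed from each other by more, and the other probe of each gene gave 1.97 and 1.59.

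Homing receptors on the FOXO list rose with them, but the wider list of homing, adhesion and egress genes went both ways. Of 16 measured, 5 rose and 4 fell, and 6 rose and 3 fell under quantile normalization, with medians of 0.01 and 0.14. S1pr3, S1pr2 and Itgb1 were among those that fell under 75th percentile scaling. Under median scaling 3 of the list rose and 6 fell. Ccr7, the chemokine receptor that guides lymphocytes to lymph nodes, read -1.54 and -1.53 with IL-7 and 0.84 and 0.44 without (2.18, SE 0.14, adjusted p = 0.00115). Klf2, a factor that maintains S1pr1, was 1.17 higher (SE 0.26, adjusted p = 0.0132), a change that came to 0.76 without the second array with IL-7 and missed the threshold without the first array lacking IL-7 (adjusted p = 0.0662). S1pr1, the receptor by which lymphocytes leave tissues, was 0.81 higher (SE 0.12, adjusted p = 0.00444, and 0.51 under normexp). Rbl2, a retinoblastoma-family protein of resting cells, was 0.68 higher (SE 0.09, adjusted p = 0.00285, and 0.43 under median scaling). The death gene Bcl2l11, a FOXO target in other cytokine-starved cells that encodes BIM, was not called, at -2.05 and -1.73 with IL-7 and -2.26 and -1.78 without (-0.13, adjusted p = 0.612). Under normexp Bcl2l11 was called lower (-0.34, adjusted p = 0.0296).

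**Figure D2:**
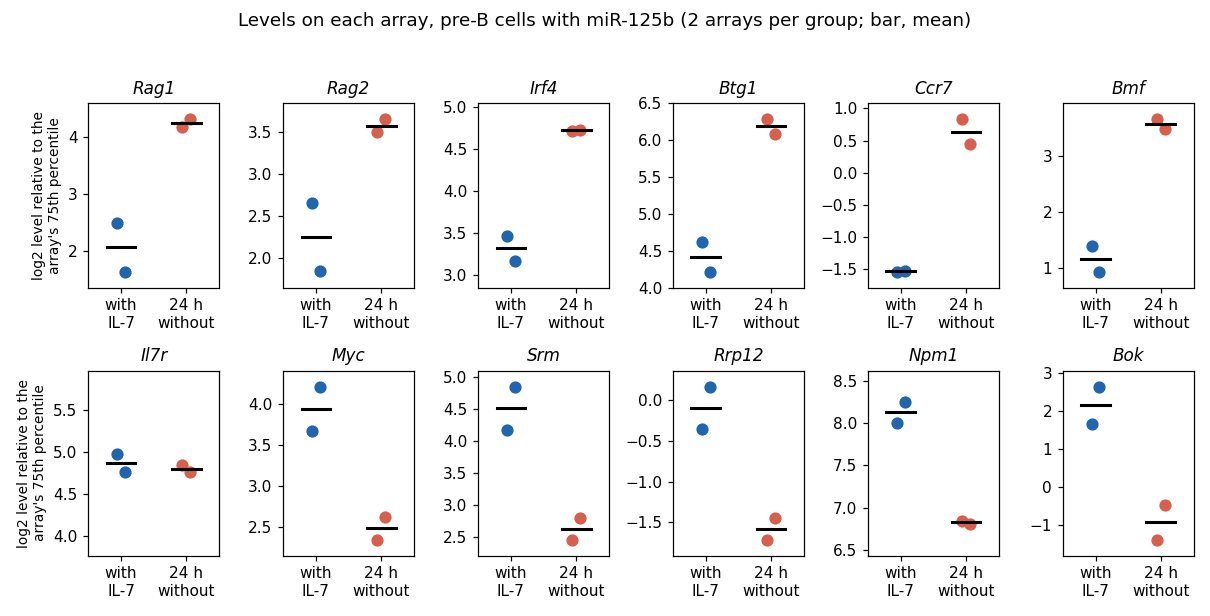
Levels of 12 genes on each miR-125b array with IL-7 and after 24 h without it (vertical axes, log2 level relative to the array's 75th percentile, scaled separately per gene; points, arrays; bars, means of 2 arrays). Rag1, Rag2, Irf4, Btg1, Ccr7 and Bmf lie higher on both arrays without IL-7, Myc, Srm, Rrp12, Npm1 and Bok lie lower on both, and Il7r overlaps.

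Promoter windows of Btg1 and Txnip are shown because each held the forkhead letters GTAAACA, the core bound by FOXO factors (capitals, both strands searched). Btg1, an antiproliferative gene, read 4.62 and 4.22 with IL-7 and 6.29 and 6.08 without (1.76, SE 0.15, adjusted p = 0.00179). Txnip, an inhibitor of thioredoxin and of glucose uptake, read 2.13 and 1.85 with IL-7 and 2.79 and 2.76 without (0.79, SE 0.12, adjusted p = 0.0046, with 0.32 at its other probe). Both genes were chosen after their values were seen. The letters stood in 5 of the 28 windows of the FOXO list (17.9%), against 3.65% of all windows, 2.63% of those of tested genes, 2.73% of those of genes called higher and 2.75% of those of genes called lower. The STAT5 letters and the E-box letters CACGTG each stood in 14.3% of the FOXO list's windows. Among windows of tested genes these shares were 7.24% and 9.49%, so the higher share was not confined to the forkhead letters. The windows lie at chr10:96616751-96617050 (Btg1) and chr3:96557707-96558006 (Txnip), both on the plus strand of GRCm38.p6.
Btg1: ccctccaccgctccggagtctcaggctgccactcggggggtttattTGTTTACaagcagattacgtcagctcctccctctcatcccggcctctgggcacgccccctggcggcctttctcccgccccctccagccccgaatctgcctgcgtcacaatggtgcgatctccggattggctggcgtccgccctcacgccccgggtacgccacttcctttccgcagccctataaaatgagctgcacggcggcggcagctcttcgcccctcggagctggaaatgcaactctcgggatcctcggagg
Txnip: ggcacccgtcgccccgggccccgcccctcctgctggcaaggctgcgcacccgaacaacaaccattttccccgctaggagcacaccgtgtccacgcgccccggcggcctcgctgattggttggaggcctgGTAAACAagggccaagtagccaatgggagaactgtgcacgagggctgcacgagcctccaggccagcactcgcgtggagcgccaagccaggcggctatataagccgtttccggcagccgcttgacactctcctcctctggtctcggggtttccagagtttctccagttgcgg

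Of 16 recombinase and end-joining genes measured, 6 rose and 3 fell under 75th percentile scaling, and 11 rose and none fell under quantile normalization. The list's median was 0.16 and 0.44, and -0.09 under median scaling. Besides the Rag genes, Dclre1c, which encodes the hairpin-opening nuclease Artemis, read 0.49 and 0.35 with IL-7 and 1.52 and 1.44 without (1.06, SE 0.09, adjusted p = 0.00176). The falls were in genes whose call depended on the scaling. Dntt, the terminal transferase that adds bases at heavy chain joints, fell by 0.61 (adjusted p = 0.0148) but missed the threshold under quantile normalization (-0.32, adjusted p = 0.0781) and without the second array with IL-7 or the first without it (adjusted p up to 0.0667). Hmgb1, a very bright DNA-bending protein gene, fell by 0.98, with -0.20 at another of its 8 probes, and by 0.35 under quantile normalization (adjusted p = 0.1).

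Transcription factors of the B lineage rose more often than they fell. Of 25 measured, 14 rose and 1 fell, and 17 rose and 1 fell under quantile normalization, with medians of 0.37 and 0.66. Of all genes, 20.3% rose and 32.1% fell, and 22.5% rose and 24.5% fell under quantile normalization. Under median scaling 8 rose and 4 fell. Irf4, which promotes light chain transcription and rearrangement (probe at chr13:30858532-30858591, plus strand, mm9), read 3.46 and 3.17 with IL-7 and 4.71 and 4.73 without, a 2.65-fold rise (1.40, SE 0.12, adjusted p = 0.00175). Bach2, a transcriptional repressor of B-lineage cells, read 3.67 and 3.40 with IL-7 and 4.87 and 4.85 without (1.33, SE 0.12, adjusted p = 0.00188). In both genes the arrays without IL-7 lay close together and stood above both arrays with IL-7. Mef2c, a factor of B cell development, rose by 0.94 and Pax5, which fixes B-lineage identity, by 0.87 (adjusted p = 0.00224 and 0.00238). Id3, an inhibitor of E proteins, was the member that fell (-0.80, SE 0.17, adjusted p = 0.0128), with an adjusted p of 0.0502 without the second array with IL-7 and 0.0631 without the first array lacking it. Spib and Ikzf3, which encode SPI-B and AIOLOS, did not pass (-0.12, adjusted p = 0.426, and 0.19, adjusted p = 0.261). Spib turned to 0.26 under quantile normalization, and Ikzf3 to -0.05 under median scaling.

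A promoter window of Bach2 is shown because it held the composite ETS-IRF letters, GGAA and GAAA with any 2 bases between them, to which PU.1 or SPI-B binds together with IRF4 or IRF8, close to the start site (capitals, on the reverse strand). Such letters stood in 2.72% of all windows, in 2.35% of those of tested genes, in 2.89% of those of genes called higher and in 1.99% of those of genes called lower. The window lies at chr4:32417185-32417484, plus strand, GRCm38.p6.
Bach2: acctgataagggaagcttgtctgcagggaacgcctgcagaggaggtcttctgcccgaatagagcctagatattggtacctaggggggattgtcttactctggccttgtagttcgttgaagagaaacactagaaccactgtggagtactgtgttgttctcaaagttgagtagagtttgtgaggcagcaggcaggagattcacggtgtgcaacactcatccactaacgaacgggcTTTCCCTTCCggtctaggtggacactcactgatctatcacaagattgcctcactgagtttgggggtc

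Of 24 genes of late pre-B and immature B cells measured, 10 rose and 2 fell, and 12 rose and 1 fell under quantile normalization, with medians of 0.25 and 0.34. Pou2af1 was among those that fell under 75th percentile scaling, where changes of the list ran from -2.77 to 3.66. Under median scaling 6 rose and 3 fell, and under normexp 9 rose and 2 fell, with a median of 0.11. Of the 24 genes, 20 were well above background on all 4 arrays and 2 were so on neither array of a group. Cd38, a surface enzyme of maturing B cells, read 2.31 and 1.48 with IL-7 and 4.00 and 4.12 without (2.17, SE 0.27, adjusted p = 0.00267). Ms4a1, which encodes CD20, was not well above background on either array with IL-7, read -3.71 and -3.91 without, and was at least 2.24-fold higher without IL-7 (adjusted p = 0.00951). That bound takes the mean of the bright group against the lowest signal counted as well above background on the dim arrays, and the call was lost under normexp (0.07, adjusted p = 0.868). Cd40, a costimulatory receptor, was well above background on 1 of 2 arrays with IL-7 and read -4.26 and -6.88 there against -1.60 and -2.22 without. Its fitted change of 3.66 (adjusted p = 0.0127) came to 0.85 under normexp and to 2.35 without the second array with IL-7 and missed the threshold without the first array lacking IL-7 (adjusted p = 0.0652). Ms4a1, Cd40 and Blk, named next, were chosen after their values were seen. The immunoglobulin kappa constant gene, Igkc, was well above background on 1 of 4 arrays, without IL-7, and did not pass (adjusted p = 0.341).

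The pre-B cell receptor and its proximal signalling genes followed the scaling. Of 21 measured, 3 rose and 7 fell under 75th percentile scaling and 9 rose and none fell under quantile normalization, and the list's median changed from -0.11 to 0.23. Vpreb1, a surrogate light chain gene near the top of the signal range, read 9.27 and 9.43 with IL-7 and 8.75 and 8.77 without (-0.59, adjusted p = 0.00417), and turned to 0.15 under quantile normalization (adjusted p = 0.259). Igll1, the other surrogate light chain gene, fell by 0.35 (adjusted p = 0.00893, and 0.0526 without the first array lacking IL-7) and turned to 0.21 under quantile normalization. Plcg2, a phospholipase that the missing adaptor would couple to the receptor, fell by 0.64 and was at -0.13 (adjusted p = 0.15) under quantile normalization. The Src-family kinase genes Blk and Lyn rose under both scalings, and Fyn, of the same family, was also called higher under 75th percentile scaling. Blk, a B cell kinase, read -4.24 and -4.67 with IL-7, where 1 of 2 arrays was well above background, and -1.84 and -1.73 without (2.67, SE 0.18, adjusted p = 0.00127). Under normexp its change was 0.83 (adjusted p = 0.000145). Lyn read -0.60 and -0.89 with IL-7 and 0.06 and -0.01 without (0.77, SE 0.11, adjusted p = 0.00356). The genes disrupted in this line, Blnk (SLP-65) and Lat, were well above background on all 4 arrays and did not pass (0.16, adjusted p = 0.14, and -0.23, adjusted p = 0.0711). Whether their probes lie in the deleted parts is not given in the sources used here, so these levels do not check the genotype. Blnk was called higher under quantile normalization (0.75, adjusted p = 0.00408), normexp (0.33, adjusted p = 0.00916) and the percentile over bright probes (0.32, adjusted p = 0.0255). Lat was called lower under normexp (-0.35, adjusted p = 0.0124), median scaling (-0.47, adjusted p = 0.0233) and a mean-variance trend (adjusted p = 0.0417).

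Genes of MHC class II presentation are described with the control cells beside them, since the counts of calls differed. Of 14 measured in miR-125b cells, 3 rose and 4 fell, and 3 rose and 2 fell under quantile normalization, with medians of -0.09 and 0.05. In control cells 8 rose and none fell, with a median of 0.58, where 20% of all genes rose and 34.2% fell. Counts of calls in each cell type are not a test of their difference, which is given below. H2-DMb1, a subunit of the peptide-loading molecule DM, read -1.47 and -1.89 with IL-7 and -3.21 and -3.65 without in miR-125b cells (-1.76, SE 0.21, adjusted p = 0.00249), against a change of -0.10 (adjusted p = 0.711) in control cells. Cd74, the invariant chain, read -0.67 and -0.94 with IL-7 and 0.32 and -0.11 without in miR-125b cells (0.91, SE 0.34, adjusted p = 0.0661), against a rise of 2.72 in control cells (adjusted p = 0.00219). In miR-125b cells Cd74 passed with their 4 arrays alone (adjusted p = 0.03), under normexp (0.66, adjusted p = 0.0331) and with a mean-variance trend (adjusted p = 0.0221). It also passed among probes well above background on all arrays (adjusted p = 0.0419). The Cd74 change in miR-125b cells passed at an adjusted p of 0.0362 when either control array with IL-7 was left out. H2-Aa and H2-Ab1, the chains of the class II molecule I-A, did not pass in miR-125b cells (-0.19, adjusted p = 0.577, and -0.15, adjusted p = 0.31, the latter 0.13 under quantile normalization) and rose by 1.23 and 0.50 in control cells (adjusted p = 0.0124 and 0.0154). Both were named after their values were seen. The test of the difference gave unadjusted p-values of 0.00156 for H2-DMb1, 0.0097 for Cd74, 0.0108 for H2-Aa and 0.0083 for H2-Ab1. After Benjamini-Hochberg adjustment over all 20676 genes these were 0.48, 0.615, 0.631 and 0.605, so none passed.

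The other class II genes moved both ways. H2-Eb1, a chain of I-E, fell by 0.66 in miR-125b cells (adjusted p = 0.0432) and H2-DMa, the other DM subunit, by 0.50 (adjusted p = 0.0353). Leaving out any of the 4 miR-125b arrays ended the call of H2-Eb1 (adjusted p from 0.0628 to 0.176), and leaving out any but the second with IL-7 ended that of H2-DMa (adjusted p from 0.0678 to 0.154). The call of H2-Eb1 was also lost under quantile normalization (-0.53, adjusted p = 0.108), in the deposited values (adjusted p = 0.107) and, as was that of H2-DMa, with the percentile over bright probes (adjusted p = 0.119 and 0.13) and with dim probes kept (adjusted p = 0.0945 and 0.0862). With the 4 miR-125b arrays alone H2-DMa was at an adjusted p of 0.0508. H2-Ob, a subunit of the DM inhibitor DO, rose by 0.89 and Rfx5, a subunit of the factor that binds class II promoters, by 0.96 (adjusted p = 0.00438 and 0.00421), with rises of 1.01 and 0.97 in control cells. Under normexp the rise of Rfx5 was 0.40. Ciita, the class II transactivator, ran from -3.72 to -1.99 with IL-7 and from -3.59 to -2.77 without, and its change of -0.32 (SE 0.59) did not pass (adjusted p = 0.666). Under normexp Ciita was called lower (-0.58, adjusted p = 0.0465).

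**Figure D3:**
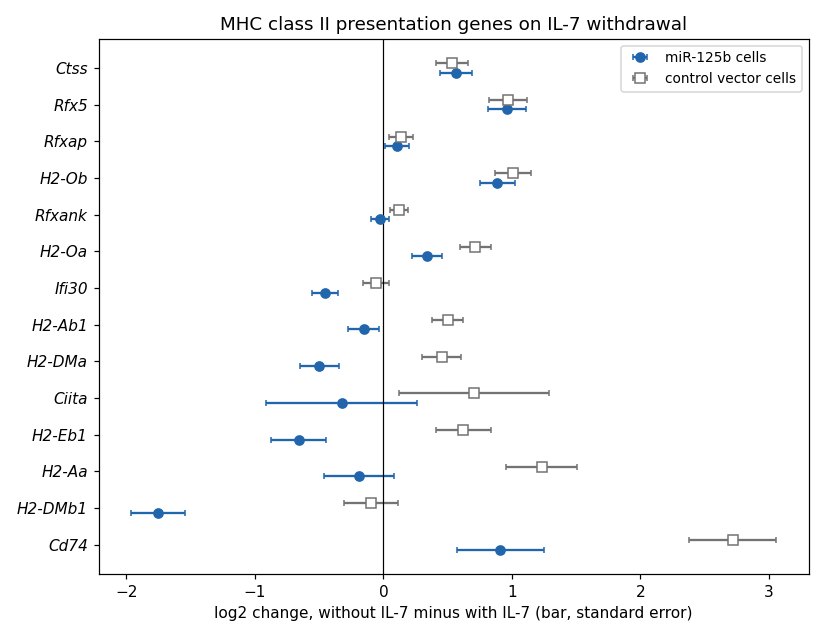
Log2 change on IL-7 withdrawal (horizontal axis, with standard error) for the 14 class II presentation genes measured, in miR-125b cells (filled circles) and control vector cells (open squares), ordered by the difference. Cd74, H2-DMb1, H2-Aa and H2-Eb1 lie furthest apart, and Rfx5 and Ctss nearly coincide.

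Myc and the genes of ribosome production fell. Myc, the growth regulator that IL-7 sustains (probe at chr15:61821417-61821476, plus strand, mm9), read 3.67 and 4.21 with IL-7 and 2.35 and 2.63 without, a 2.73-fold fall (-1.45, SE 0.25, adjusted p = 0.0061). Both arrays without IL-7 were lower than both with it. Of 12 members of the MYC and MAX network measured, 7 rose and 3 fell, and 7 rose and 2 fell under quantile normalization, with medians of 0.47 and 0.58. The risers include antagonists of MYC: Mxd4 and Mxd1, which compete with MYC for MAX, rose by 0.91 and 0.76 (adjusted p = 0.00876 and 0.00231). Mlx, which pairs with some of the same proteins, fell by 0.67 (adjusted p = 0.00257).

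All 34 ribosome biogenesis genes measured fell, with a median of -0.96, where 32.1% of all genes fell. Under quantile normalization 31 fell and none rose, with a median of -0.75 against 24.5% of all genes falling. The list's median level was 2.85, within a brightness bin in which 39.3% of genes fell under 75th percentile scaling. Rrp12, which exports pre-ribosomal subunits, read -0.35 and 0.17 with IL-7 and -1.71 and -1.45 without (-1.49, SE 0.21, adjusted p = 0.00373). Gnl3, which encodes nucleostemin, read 3.01 and 3.60 with IL-7 and 1.78 and 1.99 without (-1.42, SE 0.22, adjusted p = 0.00429). Mybbp1a, a nucleolar protein gene, read 5.78 and 6.34 with IL-7 and 4.61 and 4.76 without (-1.38, SE 0.21, adjusted p = 0.00445). None of the 3 genes had overlapping groups, which held for all 10841 genes called. The number falling was between 29 and 34 when single arrays were left out.

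The E-box letters CACGTG, to which MYC and MAX bind, stood in 7 of the 31 promoter windows of the ribosome biogenesis list (22.6%), in 7.15% of all windows, in 9.49% of those of tested genes, in 8.67% of those of genes called higher and in 11.3% of those of genes called lower. The windows of Mybbp1a and Nop2 are shown as members of this list that fell and hold the letters (capitals, which read the same on both strands). Nop2, a ribosomal RNA methyltransferase gene picked for its window after its values were seen, read 4.86 and 5.17 with IL-7 and 3.98 and 4.13 without (-0.96, SE 0.18, adjusted p = 0.00733). The windows lie at chr11:72441077-72441376 (Mybbp1a) and chr6:125131633-125131932 (Nop2), both on the plus strand of GRCm38.p6.
Mybbp1a: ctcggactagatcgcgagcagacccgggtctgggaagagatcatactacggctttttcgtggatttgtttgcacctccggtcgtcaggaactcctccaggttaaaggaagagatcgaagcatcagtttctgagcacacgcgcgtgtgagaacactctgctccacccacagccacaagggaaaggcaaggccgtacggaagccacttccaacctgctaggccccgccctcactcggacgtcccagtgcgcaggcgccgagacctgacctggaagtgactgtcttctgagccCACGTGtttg
Nop2: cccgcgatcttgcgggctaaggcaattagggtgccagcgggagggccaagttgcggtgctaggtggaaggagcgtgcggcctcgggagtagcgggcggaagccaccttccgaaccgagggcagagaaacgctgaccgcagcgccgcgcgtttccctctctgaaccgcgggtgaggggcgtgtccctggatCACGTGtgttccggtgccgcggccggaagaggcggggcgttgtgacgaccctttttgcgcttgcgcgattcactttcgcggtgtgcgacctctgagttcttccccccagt

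The calls of genes of the ribosome itself depended on the scaling. All 41 cytosolic ribosomal protein genes measured fell under 75th percentile scaling, with a median of -0.70, while under quantile normalization 4 fell and 2 rose, with a median of -0.03. These genes are among the brightest on the array, with a median level of 8.56 over the list, and 73.2% of the brightest 10% of genes fell. Rps2 and Rpl12 kept a fall under both (-1.20 and -0.56 for Rps2, -1.0 and -0.32 for Rpl12). Oxidative phosphorylation genes behaved in part the same way: all 29 measured fell under 75th percentile scaling (median -0.62, at a median level of 5.84) and 14 of 29 under quantile normalization (median -0.24). Atp5b, a subunit of ATP synthase, fell by 1.09 and, under quantile normalization, by 0.47. Of 18 heat shock and chaperone genes, 17 fell and 1 rose, and 9 fell and none rose under quantile normalization, at a median level of 5.97. Hspd1, the mitochondrial chaperonin, read 6.38 and 6.81 with IL-7 and 5.26 and 5.44 without (-1.24, SE 0.19, adjusted p = 0.00438).

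Genes of glycolysis and of nucleotide and sterol metabolism fell more often than they rose under both scalings. The median levels of the glycolysis and sterol lists, 3.09 and 2.99, lie in a brightness bin where 39.3% of genes fell under 75th percentile scaling. That of the nucleotide, serine and folate list, 3.84, lies in a bin where 48.4% fell. Of 22 glycolysis genes measured, 13 fell and none rose, and 10 fell and none rose under quantile normalization, with medians of -0.61 and -0.50. Aldoa, the glycolytic aldolase, read 7.43 and 7.76 with IL-7 and 5.78 and 5.90 without, a 3.37-fold fall (-1.75, SE 0.21, adjusted p = 0.00261). Eno1, an enolase, fell by 1.74 (adjusted p = 0.00183) and Ldha, which makes lactate, fell by 1.21 (adjusted p = 0.00279, and -0.61 under quantile normalization). Of 28 genes of nucleotide, serine and folate metabolism, 22 fell and none rose (quantile, 17 fell and 1 rose), with medians of -0.60 and -0.37. Of 27 sterol and fatty acid synthesis genes, 22 fell and none rose (quantile, 16 fell and 1 rose), with medians of -0.55 and -0.33. The sterol enzymes Fdps, Mvd and Lss fell (-1.29, -1.23 and -1.19, adjusted p = 0.00114, 0.00138 and 0.00186). Of 8 polyamine genes, 5 fell and none rose, while under quantile normalization 1 fell and 1 rose. Srm, which makes the polyamine spermidine, read 4.17 and 4.84 with IL-7 and 2.46 and 2.81 without, a 3.67-fold fall (-1.87, SE 0.29, adjusted p = 0.00441), without overlap of the groups.

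**Figure D4:**
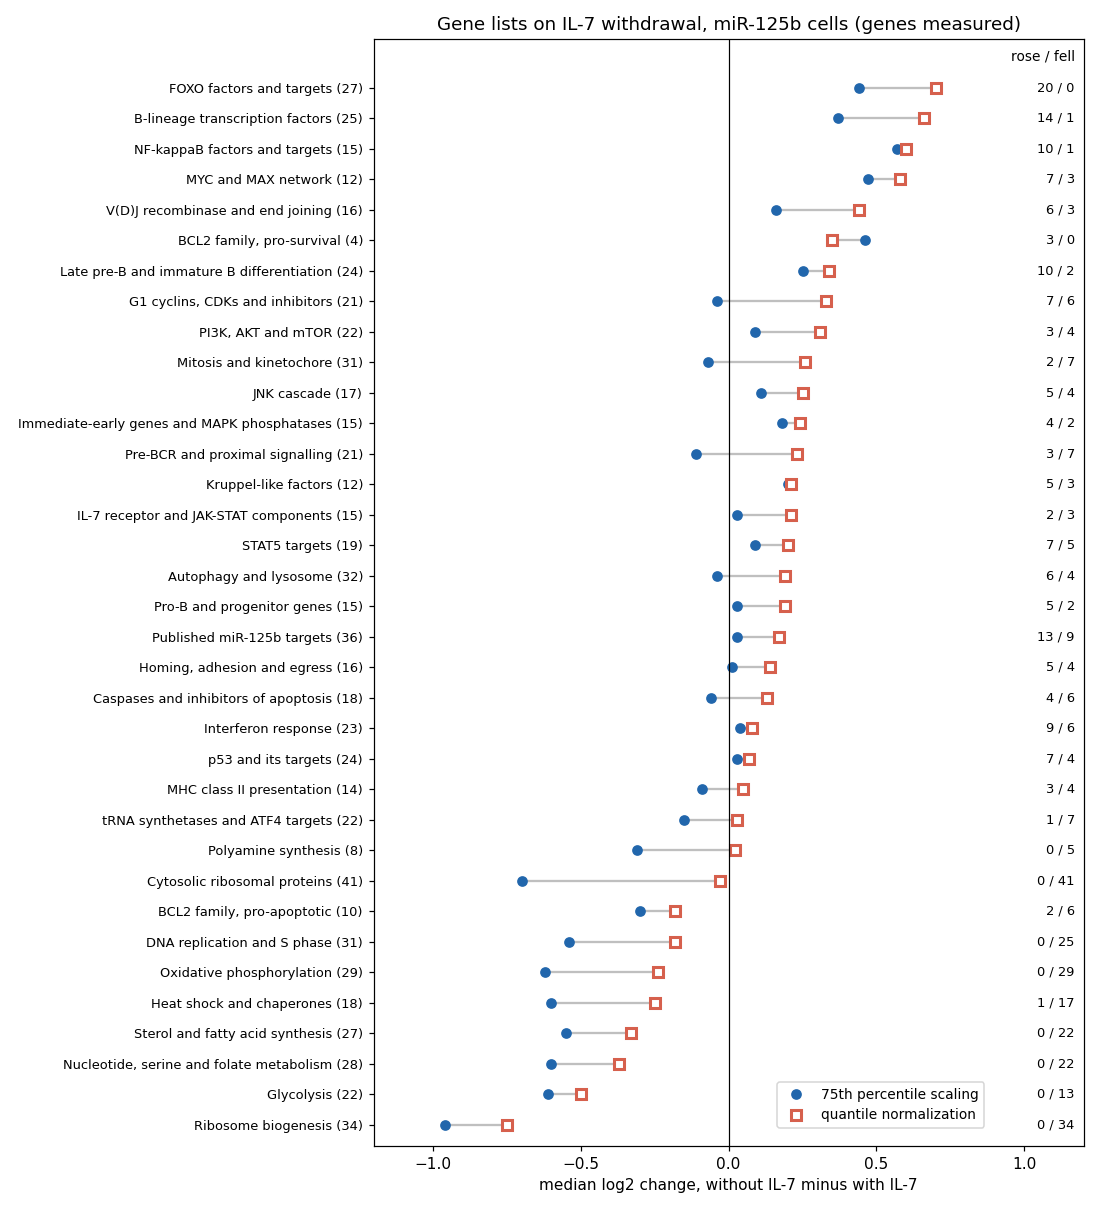
Median log2 change on IL-7 withdrawal (horizontal axis) over the measured members of each gene list (vertical axis, number measured in brackets), under 75th percentile scaling (filled circles) and quantile normalization (open squares), with the numbers that rose and fell under 75th percentile scaling at the right. FOXO targets, B-lineage factors and NF-kappaB genes lie above 0 and the ribosome biogenesis, glycolysis, nucleotide and sterol lists below 0 under both, while cytosolic ribosomal proteins move from -0.70 to -0.03.

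No gene of the DNA replication list rose under either scaling. Of 31 DNA replication and S-phase genes measured, 25 fell and none rose under 75th percentile scaling, and 13 fell and none rose under quantile normalization, with medians of -0.54 and -0.18. The list's median level of 5.38 lies in the brightest 10% of genes, 73.2% of which fell under 75th percentile scaling. Chaf1b, a histone loader behind the fork, read 6.10 and 6.20 with IL-7 and 5.06 and 5.24 without (-1.0, SE 0.10, adjusted p = 0.00189, and -0.65 under quantile normalization). Gins1, a subunit of the replicative helicase, and Orc1, of the origin recognition complex, fell (-0.90 and -0.87, adjusted p = 0.00363 and 0.00362). Of 31 mitosis and kinetochore genes, by contrast, 2 rose and 7 fell under 75th percentile scaling and 17 rose and none fell under quantile normalization, so the median turned from -0.07 to 0.26. Cdc20, an activator of the anaphase-promoting complex, fell by 0.52 and was at -0.01 (adjusted p = 0.913) under quantile normalization. Cenpf, a kinetochore protein gene, rose by 0.45 (adjusted p = 0.00863), a call that normexp (0.13) and median scaling (0.20) removed. The proliferation marker Mki67 read 7.16 and 7.17 with IL-7 and 7.29 and 7.43 without (0.20, adjusted p = 0.181), and rose by 0.76 under quantile normalization (adjusted p = 0.01).

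Of 21 cyclins, CDKs and inhibitors of G1 phase measured, 7 rose and 6 fell, and 10 rose and 3 fell under quantile normalization, with a median of -0.04 that turned to 0.33. Ccnd3, the D-type cyclin of pre-B cells, read 8.87 and 8.89 with IL-7 and 8.23 and 8.20 without (-0.67, SE 0.08, adjusted p = 0.0023). Under quantile normalization it was at -0.01 (adjusted p = 0.905). Cdk4, its partner, fell by 0.75, or by 0.26 under quantile normalization (adjusted p = 0.0529). Cdkn2c, which encodes the CDK inhibitor p18, rose by 0.74 (adjusted p = 0.00591, and 0.49 under median scaling). E2f4, an E2F factor of resting cells, fell by 0.87 (adjusted p = 0.00231). Cdkn1a, which encodes the CDK inhibitor p21, fell by 1.23 at its brightest probe (adjusted p = 0.00233), but its 3 probes ran from -1.23 to 1.57 and the mean over them did not pass (adjusted p = 0.992), so its direction is uncertain.

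Members of the BCL2 family moved both ways. Of 10 pro-apoptotic members measured, 2 rose and 6 fell, and 2 rose and 4 fell under quantile normalization, with medians of -0.30 and -0.18. Bmf, a BH3-only protein gene that promotes cell death (probe at chr2:118354496-118354555, minus strand, mm9), read 1.39 and 0.93 with IL-7 and 3.68 and 3.49 without, a 5.36-fold rise (2.42, SE 0.20, adjusted p = 0.00167). Bok, a relative of BAX and BAK, read 1.66 and 2.64 with IL-7 and -1.39 and -0.47 without, an 8.44-fold fall (-3.08, SE 0.40, adjusted p = 0.00291). Neither gene had overlapping groups, although the 2 arrays of each group lay well apart for Bok. Bid, a BH3-only protein that caspases activate, fell by 1.26, and Bak1, a pore-forming effector and a described miR-125b target, by 0.57 (adjusted p = 0.00458 and 0.00382), the latter by 0.34 under quantile normalization. Bbc3, which encodes PUMA, rose by 0.40 (adjusted p = 0.0162, up to 0.07 without either array lacking IL-7 or the first with it), a call also lost with dim probes kept (adjusted p = 0.0558) and under median scaling (0.16, adjusted p = 0.41). Of 4 pro-survival members measured, 3 rose and none fell, but 1 rose under quantile normalization. Bcl2l1, which encodes BCL-XL, read 5.17 and 5.04 with IL-7 and 5.95 and 5.86 without (0.79, SE 0.09, adjusted p = 0.00218). Bcl2 rose by 0.51 (adjusted p = 0.0328). This call was lost under quantile normalization (0.40, adjusted p = 0.0916), normexp (0.23, adjusted p = 0.0867) and median scaling (0.27, adjusted p = 0.253), with dim probes kept (adjusted p = 0.081) and with the 4 miR-125b arrays alone (adjusted p = 0.0675). It was also lost when a control array with IL-7, or any miR-125b array other than the first lacking IL-7, was dropped (adjusted p up to 0.139). Mcl1 did not pass (-0.09, adjusted p = 0.267, and 0.20 under quantile normalization), but was called lower under median scaling (-0.34, adjusted p = 0.0485).

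Of 18 caspases and inhibitors of apoptosis measured, 4 rose and 6 fell, and 6 rose and 3 fell under quantile normalization. Apaf1, the scaffold of the apoptosome, and Birc3, an inhibitor of apoptosis induced by NF-kappaB, rose by 0.60 and 0.57 (adjusted p = 0.00378 and 0.00306), calls lost under median scaling (0.36, adjusted p = 0.0661, and 0.32, adjusted p = 0.0743). Of 24 p53-related genes, 7 rose and 4 fell, and 8 rose and 3 fell under quantile normalization, with a median of 0.03 that was -0.22 under median scaling. Trp53 itself read 1.35 and 1.40 with IL-7 and 0.51 and 0.95 without (-0.65, SE 0.16, adjusted p = 0.0172). The call was lost without either array with IL-7 or the first without (adjusted p from 0.0514 to 0.0716). Trp53inp1, a stress protein gene and described miR-125b target, read 2.71 and 2.53 with IL-7 and 4.03 and 4.05 without, a 2.68-fold rise (1.42, SE 0.09, adjusted p = 0.00115). Btg2 and Zmat3, both p53 targets that restrain growth, rose by 1.24 and 1.70 (adjusted p = 0.00176 and 0.00272), and Zmat3 by 1.00 under normexp. Aen, a p53-induced nuclease, fell by 0.86 (adjusted p = 0.00271).

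Genes described as targets of miR-125b moved in both directions while the vector was present in both groups. Of 36 measured, 13 rose and 9 fell, and 16 rose and 5 fell under quantile normalization, with a median of 0.03 that was -0.22 under median scaling. Bmf, Trp53inp1 and Irf4, described above, had the largest rises. Map3k11, a kinase that activates JNK, read 1.14 and 1.03 with IL-7 and 0.68 and 0.69 without (-0.40, SE 0.07, adjusted p = 0.00625). Prdm1, which encodes the plasma cell regulator BLIMP-1, rose by 0.54 (adjusted p = 0.0149), a call lost without the second array with IL-7 or either array without it (adjusted p up to 0.0687) and under median scaling (0.29, adjusted p = 0.108). In control cells, which carry the control vector, 13 of the same 36 genes rose and 9 fell, with a median of 0.17. Of all genes in control cells, 20% rose and 34.2% fell. Of 17 JNK cascade genes, 5 rose and 4 fell, and 7 rose and 2 fell under quantile normalization, with a median of 0.11 that was -0.12 under normexp and -0.14 under median scaling. Jun, the transcription factor the pathway acts on, read 0.57 and 0.61 with IL-7 and 1.66 and 1.69 without (1.09, SE 0.07, adjusted p = 0.00114), and Dusp16, a JNK phosphatase, rose by 1.09 (adjusted p = 0.00183).

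NF-kappaB genes rose more often than they fell. Of 15 measured, 10 rose and 1 fell under each of 75th percentile scaling and quantile normalization, where 20.3% and 22.5% of all genes rose, with medians of 0.57 and 0.60. Under median scaling 7 rose and 4 fell. Relb, a subunit of the alternative pathway, read 0.00 and -0.21 with IL-7 and 1.23 and 1.25 without (1.34, SE 0.10, adjusted p = 0.0016), although its 3 probes ran from 0.13 to 1.53. Nfkbiz, a nuclear cofactor, read -2.37 and -2.89 with IL-7 and -1.15 and -1.47 without (1.32, SE 0.21, adjusted p = 0.00456, and 0.76 under normexp). Tnfaip3, the feedback inhibitor A20, read -1.22 and -0.66 with IL-7 and 0.23 and 0.25 without (1.18, SE 0.18, adjusted p = 0.00418). In all 3 genes the groups stood apart. Of 23 interferon response genes, 9 rose and 6 fell, and 7 rose and 3 fell under quantile normalization, with a median of 0.04 that was -0.19 under normexp and -0.21 under median scaling. Ifih1, the RNA sensor MDA5, and Bst2, the antiviral tetherin, fell (-1.38 and -1.14), and Irf9, a subunit of the interferon-activated factor, rose by 0.75 (adjusted p = 0.00322, 0.00247 and 0.00509).

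Of 22 PI3K, AKT and mTOR components measured, 3 rose and 4 fell, and 11 rose and 2 fell under quantile normalization. The median was 0.09, or -0.15 under median scaling. Ddit4, which encodes the mTOR inhibitor REDD1, read 3.84 and 3.91 with IL-7 and 5.36 and 5.18 without, a 2.62-fold rise (1.39, SE 0.13, adjusted p = 0.00188). Eif4ebp1, the translation repressor that mTOR inactivates, read 5.27 and 5.50 with IL-7 and 4.40 and 4.54 without (-0.92, SE 0.13, adjusted p = 0.00377). These changes of opposite sign kept their direction under quantile normalization (1.66 and -0.63).

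The largest changes among genes with a probe well above background on all 4 arrays fell outside most of these lists. Eps8, an actin-capping adaptor, read -3.23 and -4.40 with IL-7 and 1.37 and 0.88 without, a 30.7-fold rise (4.94, SE 0.40, adjusted p = 0.00167) that came to 3.11 on the log2 scale under normexp. Gsn, which encodes the actin-severing protein gelsolin, read -1.47 and -2.58 with IL-7 and 2.95 and 2.77 without, a 29.5-fold rise (4.88, SE 0.33, adjusted p = 0.00127). The next highest were Ifi214, an interferon-inducible gene of the p200 family (4.02), Ltbp2, a matrix protein that binds fibrillin (4.00), Ggh, which trims folate polyglutamates (3.80), and Syne2, which links the nucleus to the cytoskeleton (3.62, with 1.68 at its other probe). The remaining 6 of the 12 highest were 6330407A03Rik and, in descending order from 3.26 (Gnai1) to 2.94 (Adgrf1), Gnai1, Tpd52, Lamb1, Col5a3 and Adgrf1. Genes of the cytoskeleton and matrix stand among them (Eps8, Gsn, Syne2, Ltbp2, Lamb1, which encodes a laminin chain, and Col5a3, a collagen chain), which is a description of the 12 and was not tested.

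The largest fall was in Cst7, the protease inhibitor cystatin F, which read -0.24 and 0.39 with IL-7 and -4.34 and -3.40 without, a 15.4-fold fall (-3.94, SE 0.42, adjusted p = 0.0021). Insm1, a zinc finger factor best known from endocrine and neural cells, read 1.36 and 0.31 with IL-7 and -3.19 and -2.80 without, a 14.2-fold fall (-3.83, SE 0.34, adjusted p = 0.00179). Bok, given above, was the third. The other 9 of the 12 lowest were Slc5a11, Serpinb9c, Ptgir, Sema3c, Gm5481, Nefh, Tmem119, Tmem98 and Sema3g, with changes from -2.99 to -2.54. Ptgir, the prostacyclin receptor, missed the threshold without the second array with IL-7 (-1.91, adjusted p = 0.073) or the first without it (-2.34, adjusted p = 0.0915). Gabarapl1, an autophagosome protein gene, fell by 1.82 (adjusted p = 0.0016).

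Among the genes that were dim on both arrays of a group and well above background on both of the other, the 6 with the largest bounds in each direction are given here. Cd8a, the coreceptor chain of cytotoxic T cells, read -6.99 and -6.96 with IL-7, where it was not well above background, and 1.60 and 1.69 without, and was at least 99-fold higher without IL-7 (adjusted p = 0.000129). Of the other T and NK cell markers, 10 were dim on all 4 arrays, among them its partner Cd8b1, and 9 were well above background on all 4, among them Cd3e. The summed level of the T and NK cell markers was 31.8 and 33.4 with IL-7 and 28.1 and 30.1 without, in multiples of the 75th percentile with Cd8a included. Trim12a, Gnpda2, Cnrip1, Uaca and Parp8 were at least 25-fold, 23.6-fold, 21.5-fold, 18.4-fold and 11.9-fold higher. Cd8a, Trim12a, Gnpda2, Cnrip1 and Parp8 went from dim to bright in control cells as well, so these rises were not particular to miR-125b cells. In both cell types the rise cannot be told apart from the change of slide. Genes that became dim without IL-7 included Nr2c1, an orphan nuclear receptor (at least 9.32-fold lower), Srxn1, which repairs oxidised peroxiredoxins (8.45-fold), Plekha7 (6.18-fold), Tom1l1 (5.4-fold), Kctd17 (4.85-fold) and Ckap4, a membrane protein of the endoplasmic reticulum (4.68-fold). Of the 989 genes dim with IL-7 alone, 712 were called, and of the 201 dim without IL-7 alone, 147, where 52.4% of all genes were called. These genes were picked for being dim in a group and bright in the other, so their calls add nothing to that choice. The arrays differed in the number of probes above background as given above.

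The response of miR-125b cells was set against that of control cells, which share both slides with them but no array. In control cells 11203 genes (54.2%) were called, 4139 (20%) higher and 7064 (34.2%) lower. Without the first control array lacking IL-7 the number was 7243. Across the 20676 genes the changes in the 2 cell types correlated at r = 0.889 (Spearman 0.895), a description of points that share slides and scans. Of 9174 genes called in both, 9159 had the same direction. The test of the difference between the responses, in which a constant slide effect on a probe cancels, called 0 genes at an adjusted p under 0.05 by limma, with a smallest adjusted p of 0.149. In that test 1218 genes (5.89%) had an unadjusted p under 0.05, near the share that this threshold passes when no response differs. The same test called 5 genes after normexp correction (AV274098, Gm5481, Itgb3, Mcoln2 and St3gal6, named after their values were seen) and 1 gene under each of quantile normalization, the authors' deposited values, median scaling and a mean-variance trend. It called 3 without the first miR-125b array lacking IL-7 and 1 without the first miR-125b array with IL-7.

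Named members with unadjusted p-values under 0.01 in that test were read as values only. S1pr1 rose by 0.81 in miR-125b cells and was at -0.16 in control cells (difference 0.97, SE 0.18, adjusted p = 0.48). Relb rose by 1.34 against 2.04, and Jun by 1.09 against 1.50 (adjusted p of the difference 0.527 and 0.566). The changes of Gm5481 were -2.65 and -1.46 (adjusted p of the difference 0.332). Of genes described above, Rag1 rose by 2.20 and 2.89, Irf4 by 1.40 and 1.53, and Bmf by 2.42 and 2.55, with differences of -0.69 (SE 0.40), -0.13 (SE 0.17) and -0.13 (SE 0.28). These intervals do not show that the responses were equal.

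**Figure D5:**
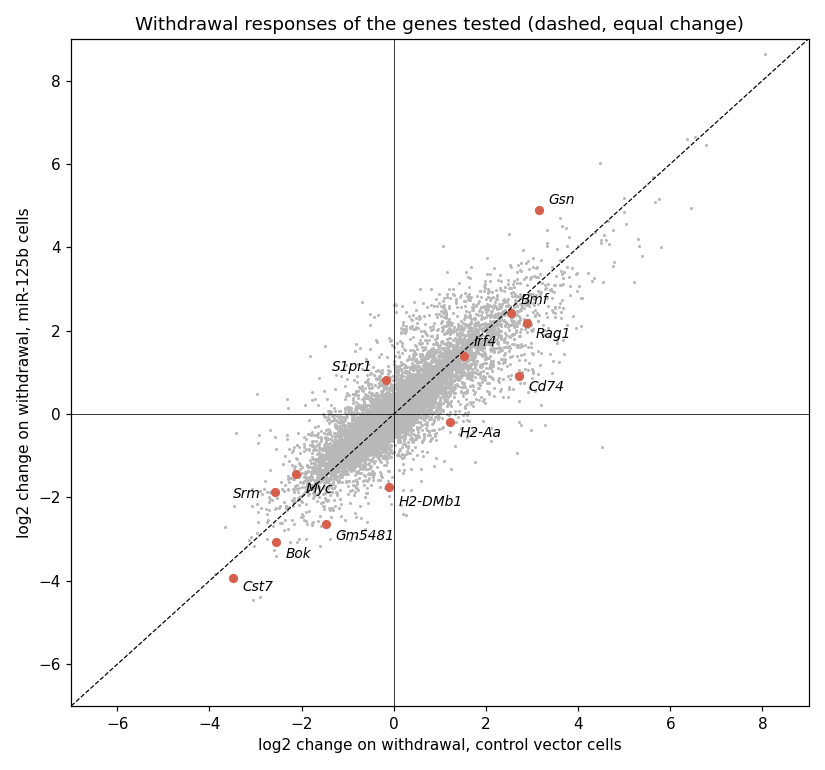
Log2 change on IL-7 withdrawal in control vector cells (horizontal axis) and miR-125b cells (vertical axis) for the 20676 genes tested (grey points), with 13 named genes marked and the line of equal change dashed. Grey points include genes not above background in a group, at their fitted values. The genes lie along the line (r = 0.889), with Cd74, H2-Aa and H2-DMb1 below it and S1pr1 and Gsn above.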

How the data were processed

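Total RNA (100 ng per sample) was labelled with Cy3 and hybridised to one-colour Agilent arrays of 60-base probes. Per the file headers, the deposited intensity values came from Agilent Feature Extraction, release 10.7.3.1 for the IL-7 slide and 10.7.1.1 for the withdrawal slide, while the submitters' processing notes name 10.7.1.1 alone. The deposited processed signals are intensity values already background-subtracted by that software, and the deposited quality marks (other) give well above background, nonuniform and saturated, where 0 spots were saturated. The authors' deposited value table, whose log base and centring are not stated in the sources used here (column median 21.7), holds values that correlate at r of at least 0.9993 with the scanner values and have the same distribution on every array. It was used as an alternative.

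Control spots and 58 nonuniform probes were left out, and the log2 of the deposited signal was scaled to each array's 75th percentile. A probe was kept if any of the 4 groups had it well above background on both its arrays (29811 probes), and the brightest by mean over 8 arrays stood for each of 20676 genes, 13745 of them with a symbol. Names came from RefSeq by accession (27325 probes), symbol (3523) or synonym (551), and otherwise from the files. Changes were tested with limma 3.58.1 in R 4.3.3 (lmFit and eBayes, two-sided, 4 residual degrees of freedom, Benjamini-Hochberg over all genes) on 4 group means over 8 arrays. "Adjusted p" means that test throughout, and the fit was tested on simulated data. With 2 arrays per group an exact permutation test over samples cannot go below p = 0.333, so the number of arrays limits precision. A fold bound sets the bright group's mean against the lowest signal counted as well above background on each dim array.

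Named genes are the 12 highest and 12 lowest called, the 6 largest bounds each way, up to 3 risers and 3 fallers per list, and a list of key genes, with exceptions named. The members, the 42 gene lists and the tests were chosen with earlier results of these data known. The alternatives were other scalings, background corrections, probe filters, probe averaging, a mean-variance trend, replicate blocks and each array left out. Probe coordinates are those of the files (mm9). Ighm and most other immunoglobulin genes had no named probe and were not analysed here.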

Additional observations from a re-analysis of the deposited data

How the results depend on the processing

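Withdrawal and slide cannot be told apart, and 2 arrays a group and signal near background limit what can be called. Of 128 named genes called, 99 kept their call and sign in every one of the alternatives run and 29 lost or reversed it in at least 1, 16 of them when an array was left out. The number of genes called in miR-125b cells was 2817 at 2-fold or more and 7170 to 10707 when single arrays were left out. In control cells it was 3175 at 2-fold or more and 7243 to 11075. The test of the difference called 5 genes after normexp, 1 under each of quantile normalization, the deposited values, median scaling and a mean-variance trend, and 0 to 3 without single arrays. The replicate numbers were not established to pair arrays (correlation of same-numbered deviations 0.11). With the replicate block 10083 genes were called in miR-125b cells, 10477 in control cells and 0 in the difference, and with the number as a clone block 8892 in miR-125b cells. The replicate block ended the calls of Bcl6, H2-Eb1 and H2-DMa, and the clone block ended those of Bcl6, Bbc3 (adjusted p = 0.0556) and Bcl2 (adjusted p = 0.0703) and brought Cd74 past the threshold (adjusted p = 0.015).

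Signs turned as follows, and the cause was not tested. Under normexp Ccnd2 was -0.35, Il7r 0.14, Ikzf3 -0.18 and Igkc -0.33. Under quantile normalization Il7r was 0.22, Spib 0.26, Vpreb1 0.15, Igll1 0.21, H2-Ab1 0.13 and Mcl1 0.20, and in the deposited values these were 0.23, 0.26, 0.14, 0.21, 0.14 and 0.21. Under median scaling Pim1 was -0.02, Ikzf3 -0.05, Blnk -0.09 and Mki67 -0.05. With the percentile over bright probes Il7r was 0.09, Bcl2l11 0.03, Spib 0.04, H2-Ab1 0.01 and Mcl1 0.07. Without single arrays Cish ran from -1.43 to 0.49, Il7r from -0.18 to 0.04, Bcl2l11 from -0.37 to 0.11, Spib from -0.28 to 0.04, H2-Aa from -0.44 to 0.06 and Ciita from -1.19 to 0.54. The filter for probes above background on all arrays left no immunoglobulin locus gene and gave no median there.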

Other observations

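Calls in other lists went both ways under 75th percentile scaling. Of 22 tRNA synthetase and ATF4 target genes measured, 1 rose and 7 fell, and 2 rose and 3 fell under quantile normalization, with medians of -0.15 and 0.03. Of 12 Krüppel-like factor genes, 5 rose and 3 fell under each. Of 32 autophagy and lysosome genes, 6 rose and 4 fell, and 11 rose and 2 fell under quantile normalization. Of 15 pro-B and progenitor genes, 5 rose and 2 fell, and 7 rose and none fell under quantile normalization.

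Of 8 plasma cell markers measured, 2 rose and 6 fell, and 2 rose and 3 fell under quantile normalization. Their summed level was 246 and 256 times the array's 75th percentile with IL-7 and 206 and 218 without. That list shares Irf4 and Prdm1, its members that rose, with other lists above. The summed level of the myeloid markers was 156 and 170 with IL-7 and 182 and 168 without, so the groups overlapped, with 8 of 17 markers dim on all 4 arrays. The summed level of the stromal and endothelial markers was 55.5 and 51.8 with IL-7 and 55.7 and 55.2 without, and that of the erythroid and megakaryocyte markers 10.5 and 12.3 with IL-7 and 8.64 and 8.28 without. That of the pre-B cell markers was 1640 and 1660 with IL-7 and lower, at 1360 and 1340, without. Their median level of 5.67 lies in the brightest 10% of genes. Of 14 measured, 5 rose and 3 fell, and 11 rose and none fell under quantile normalization.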
